A study of Mus musculus with 7 samples.

Results

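Brain RNA of wild type mice at day 3 after a transient stroke was compared with brain RNA labelled as coming from a sham operation. The comparison holds 4 of the 7 arrays of the series, chosen by their titles: 3 labelled wild type (WT) day 3, replicates 1 to 3, and 1 labelled WT sham. The mice are labelled male C57BL/6N. The day 3 mice had a middle cerebral artery occluded for 60 min before flow returned. The labels' treatment text gives that occlusion for every sample, and the sham operation is named only in the title, source and description of its sample. The other 3 arrays carry Pla2g2e -/- brains at day 3, on a second slide, and were used here only to estimate the spread. Pla2g2e encodes a secreted phospholipase A2, and the series was designed to compare its loss with wild type. The labels state neither the hemisphere or region taken nor whether each replicate is another animal. The p-values therefore measure only how far these samples spread, and that spread may be technical.

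After an artery to the brain is blocked and reopened, neurons in the core of the territory die, microglia and astrocytes become reactive, and neutrophils and then monocytes enter from the blood. Vessels leak and sprout, and fibroblasts and reactive glia begin to lay down matrix around the lesion. A sham operation repeats the surgery without lasting occlusion, so it is the usual reference for the effects of the ischemia itself.

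Each sample was hybridised in 1 colour. Leaving controls aside, an array carried 43020 oligonucleotide spots, with 31177 to 34029 well above background and 0 saturated. Signals below are log2 values from which the 75th percentile of the same array was subtracted, called log2 signal, and differences are day 3 minus sham on that scale. Brain markers were present on the 4 arrays: 17 of 18 general neuron genes, 15 of 15 astrocyte genes and 15 of 15 myelin genes were well above background on every one. By correlation across 23186 features, which are not independent replicates, WT day 3 replicates 2 and 3 were alike (r = 0.989, 5.14% of features over 2-fold apart). The array labelled sham was nearer to them (r = 0.981 with each, 10.1% and 11.7% over 2-fold apart) than to WT day 3 replicate 1 (r = 0.916, 33.7%). It was nearest of all to knockout day 3 replicate 2, at 3.72% of features.

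On the gene lists given next, WT day 3 replicate 1, rather than sham, stood furthest from replicates 2 and 3. The reason was not tested. For 24 genes of damage-associated microglia and other phagocytes, the median log2 signal was 4.78 and 4.75 on WT day 3 replicates 2 and 3. It was 4.54 on sham and 0.29 on replicate 1. The 21 cell cycle genes read 0.73 and 0.66 on replicates 2 and 3, 0.87 on sham and -3.71 on replicate 1. General neuron genes had the opposite pattern, with medians of 1.99 and 1.72 on replicates 2 and 3, 2.36 on sham and 4.18 on replicate 1. For these microglial and cell cycle lists, sham thus read close to replicates 2 and 3, and replicate 1 far lower; other injury lists differed between sham and replicates 2 and 3, as given below. Arrays are named by their labels throughout, every direction below is that of the labels, and list medians are given with replicates 2 and 3 and with all 3 arrays.

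A single sham array leaves little to test. An exact permutation test of 3 arrays against 1 cannot go below p = 0.25, one-sided, so the tests are those of limma, fitted over all features with the single sham array assumed to vary like the day 3 arrays. With all 3 WT day 3 arrays, 3 of 23186 features were higher at a Benjamini-Hochberg adjusted p under 0.05 (0.0129%) and 0 were lower, with 188 higher (0.811%) and 71 lower (0.306%) at an unadjusted p under 0.05. With replicates 2 and 3 only, 5 were higher (0.0216%) and 1 lower (0.00431%), with 568 (2.45%) and 480 (2.07%) at an unadjusted p under 0.05.

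All 5 genes that passed as higher were measured by spots dim only on sham, meaning well above background on the other 6 arrays and over 2 log2 units lower on sham than on each of them. By the same rule applied to each array, sham had 23 such spots and WT day 3 replicates 1 to 3 had 2094, 7 and 0. The knockout arrays had 4, 2 and 24. Those on sham were not scattered. Columns 84 and 85, the last of the array, held 12, among them 8 in rows 262 to 270, and 9 more lay in rows 526 to 532 at columns 24 to 26, close to the bottom edge at row 532. The genes share a place on the array and not a sequence, as the first 30 bases of their 60-base probes show, given as the files list them, in lower case throughout and with positions on mm9.
Zfp652: cgtttcacacaatatcaagcattatagaga
Cnot9: ccgtgtctcatacacttgaagatgtctata
BC002059: ctatgaatgtaaccaatgtggcaaagccta
Lrrc14b: ccagtatttgctttgccaaagtactactgt
Ang4: ctgggtctggttgtgattcctccaactctg
Ncaph2, spot near the bottom edge: agaggccatgccagagtccctgagatacga
Ncaph2, spot inside the array: atgctttgcctgggcactgggatgcatgtg

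The genes that passed as higher are treated here as possible local defects of the sham array. The fold bounds given for them hold for the signal of the spot and bound no change in expression. Zfp652, a zinc finger gene, was measured at chr11:95625809-95625868 by the spot in row 528 and column 25. It read -2.47, -1.49 and -1.48 on WT day 3 replicates 1 to 3 and -9.37 on sham, where it was not well above background. It was at least 54.5-fold higher at day 3 with all 3 arrays (limma, adjusted p = 0.0481) and at least 68.5-fold with replicates 2 and 3 (adjusted p = 0.0142), bounds that set the sham value at the lowest signal well above background. Cnot9, which encodes part of the CCR4-NOT deadenylase (chr1:74576742-74576801), lay in row 529 and column 25. It read -3.81, -3.24 and -3.26 against -9.37, at least 17.7-fold higher (limma, adjusted p = 0.0481). BC002059, known by its clone name (chr17:17110157-17110216), lay in row 531 and column 24. It read -1.93, -2.43 and -2.28 against -7.50 on sham, where it was not well above background. Its 39.0-fold difference is the plain ratio of these readings, as -7.50 lay above the lowest sham signal well above background, -7.58.

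The other 2 passed only with replicates 2 and 3. Lrrc14b, a leucine-rich repeat gene (chr13:74497030-74497089; row 264, column 84), read -6.36, -4.31 and -3.94 on replicates 1 to 3 and -9.53 on sham, so it was at least 11.0-fold higher on replicates 2 and 3 (limma, adjusted p = 0.0203). Ang4, an angiogenin ribonuclease gene (chr14:52384066-52384125; row 266, column 85), read -4.73, -2.03 and -2.07 against -7.00 on sham, where it was above background, 4.94 ± 0.21 higher (SE; limma, adjusted p = 0.0205). With the features measured by such spots left out, limma called 0 of 23171 features in either fit, with 176 higher and 71 lower at an unadjusted p under 0.05 for 3 arrays and 555 and 480 for replicates 2 and 3.

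Where a gene had a second measurement elsewhere on the array, no gap of that size was seen. Ncaph2, a condensin subunit gene, read 0.58 to 0.77 on the WT day 3 arrays and -9.36 on sham at row 532, column 25. Its other probe, at row 122 and column 37 (chr15:89203198-89203257), read 2.29 to 2.67 against 2.20, a difference of 0.22 ± 0.27 (SE) with 3 arrays. Tfrc, the transferrin receptor gene, had 1 probe printed in 10 spots: on sham the spot at row 532 and column 24 read -9.37 and the other 9 read -1.57 to -1.35. Metap1, a methionine aminopeptidase gene, read -1.98 in row 527 and 0.74 to 0.98 in its other 9 spots on the same array. In all, 9 genes with such a spot had 15 other probes well above background on every array, and these differed from sham by -0.31 to 0.39 with 3 arrays and by -1.13 to 0.45 with replicates 2 and 3.

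The same edge was dim on sham well beyond these spots. Among spots well above background on the other 6 arrays, 10.6% in column 85 and 11.8% in rows 531 and 532 were over 1 log2 unit lower on sham than on each other array, against 0.0671% in the positions inside the outer 2 rows and columns. In column 85 the share was 0.33% on WT day 3 replicate 2, 0% on replicate 3 and 1.63% or less on the knockout arrays. The median spot of column 85 was 0.31 lower on sham than the median of the other 6 arrays. This pattern was noticed after the values were seen, and every gene named below is marked where its spot lies in the outer 2 rows or columns.

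**Figure D1:**
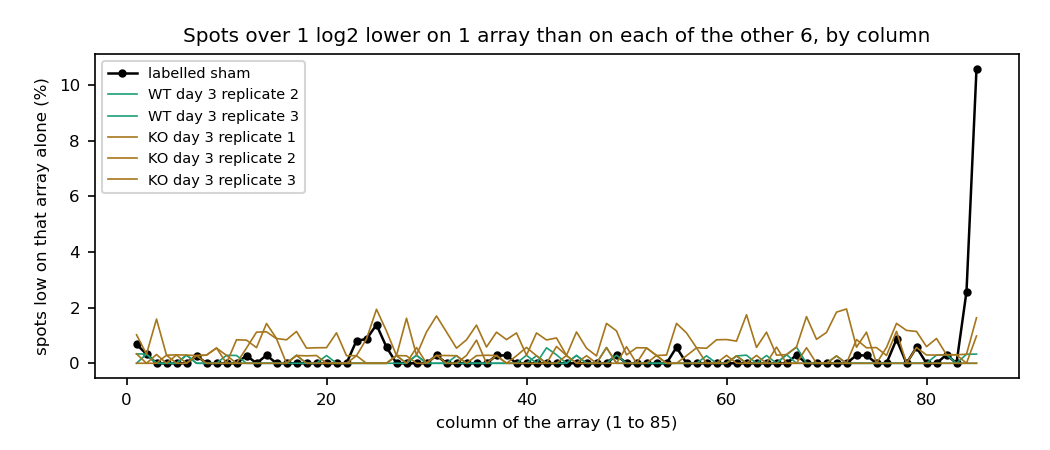
Percent of bright spots over 1 log2 unit lower on 1 array than on each of the other 6, by column of the array (1 to 85), for the array labelled sham (black), WT day 3 replicates 2 and 3 (green) and the 3 knockout arrays (brown). Replicate 1 is left out, as 2094 of its spots were over 2 log2 units lower than on every other array. Sham reaches 10.6% in column 85, where no other array drawn passes 1.63%.

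Many genes higher on all 3 WT day 3 arrays lay at this edge. In the mean of 3 arrays 54.1% of features were higher and 45.9% lower. Every WT day 3 array lay above sham for 3866 features (16.7%) and below it for 2581 (11.1%), and sham lay within the range of the 3 for 16739 (72.2%). All 3 were over 1 log2 unit above sham for 112 (0.483%) and below it for 87 (0.375%). Of the 112, 48 were measured in the outer 2 rows or columns or by a spot dim only on sham, though these made up 1029 of the 23186 features; of the 87, 2 were. Of the 12 named genes that were higher on every array at an unadjusted p under 0.01, 9 lay in columns 84 and 85: Olfr1466, Chp2, Rint1, Ino80b, Rasa1, Nceh1, Utp6, Phtf1 and Nsd1, with differences of 1.04 to 3.09 and none past the adjusted threshold.

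Inside the array, 7 named genes had every WT day 3 array on the same side of sham at an unadjusted p under 0.01 with 3 arrays, and none passed after adjustment. Ltf, the gene of lactoferrin, an iron-binding protein of neutrophil granules and glands, read -4.91, -4.87 and -4.28 on replicates 1 to 3 and -6.80 on sham, 2.11 ± 0.54 higher (SE; limma, adjusted p = 1.0). Cdhr1, a photoreceptor cadherin gene also known from mitral cells of the olfactory bulb, read -1.18, -1.34 and -1.76 against -3.15. Krt5, a keratin gene of basal epithelium, read -5.25, -5.45 and -5.20 against -6.41. The knockout arrays also read above sham, at -5.75 to -4.64 for Ltf, -2.10 to -1.25 for Cdhr1 and -6.12 to -5.72 for Krt5. Sham was thus the lowest array of the series for each, and a local defect of its spots was not tested. In these 3 genes the WT day 3 values lay closer to each other than to sham. The choice by side of sham and unadjusted p favours such genes, so this adds no support.

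The 4 lower genes were led by Pmch, which encodes melanin-concentrating hormone of the lateral hypothalamus. It read -4.65, -3.64 and -2.75 on the WT day 3 replicates and -0.46 on sham, differing by -3.21 ± 0.77 (SE; limma, adjusted p = 1.0) with 3 arrays and by -2.73 ± 0.56 on replicates 2 and 3. Eomes, a T-box gene of mitral and tufted cells and of newborn neurons, read -6.94, -6.87 and -6.56 against -4.30. Irx1, a homeobox gene of the Iroquois family, read -3.49, -3.16 and -2.86 against -1.33. Secisbp2l, whose protein binds selenoprotein mRNAs, read -1.81, -2.01 and -1.60 against -0.59. Pcp2, a Purkinje cell gene of the cerebellum, also read -3.31, -3.98 and -4.20 against -0.89. Pmch, Eomes, Cdhr1 and Pcp2 are each known from a restricted part of the brain, but Cdhr1 was higher and the others lower. With replicates 2 and 3, the 16 hypothalamic genes listed had a median difference of -0.23. The 15 olfactory bulb and neuroblast genes had -0.08 and the 9 midbrain and hindbrain genes -0.96. A difference in dissection was not tested, and the labels do not describe the dissection.

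**Figure D2:**
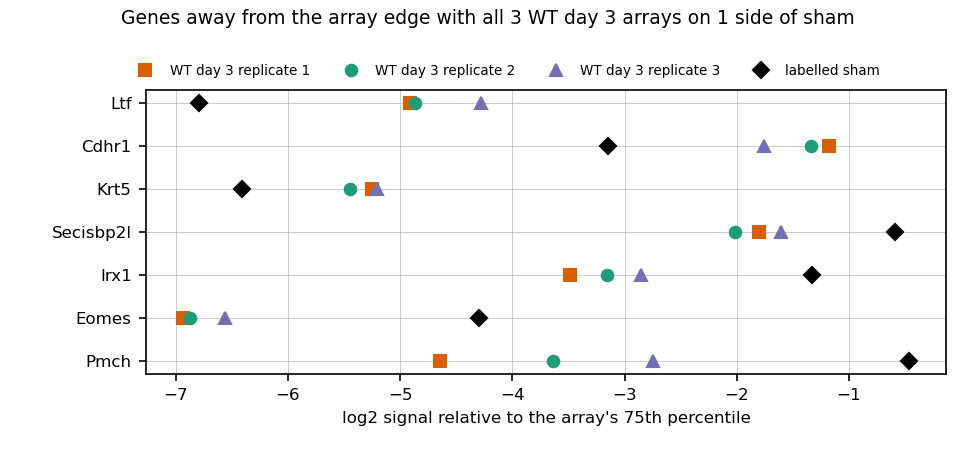
Log2 signal, relative to the 75th percentile of each array, of the 7 named genes inside the array for which the 3 WT day 3 arrays lay on 1 side of sham at an unadjusted p under 0.01. Each point is 1 array. Ltf, Cdhr1 and Krt5 lie above the black sham points and Secisbp2l, Irx1, Eomes and Pmch below them.

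With replicates 2 and 3 alone, both lay above sham for 9769 features (42.1%) and below it for 9356 (40.4%), by over 1 log2 unit for 614 (2.65%) and 685 (2.95%). That balance turned with the scaling, to 851 above and 463 below with median centring, 333 and 175 with normexp and 715 and 567 with quantile normalization. Their mean was higher than sham for 50.8% of features and lower for 49.2%, by over 1 log2 unit for 4.1% and 5.84%, and sham lay between them for 17.5%. No member of the 35 gene lists passed after adjustment; the smallest limma adjusted p among the 546 measured genes was 0.432. The lists are therefore described by counts and by the median difference over their members, beside a median of 0.01 over all features with replicates 2 and 3 and 0.03 with 3 arrays. Counts of members above or below sham on both replicates are to be read beside the 42.1% and 40.4% of all features. In RNA from whole tissue, fewer cells of a type and less RNA per cell cannot be told apart.

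**Figure D3:**
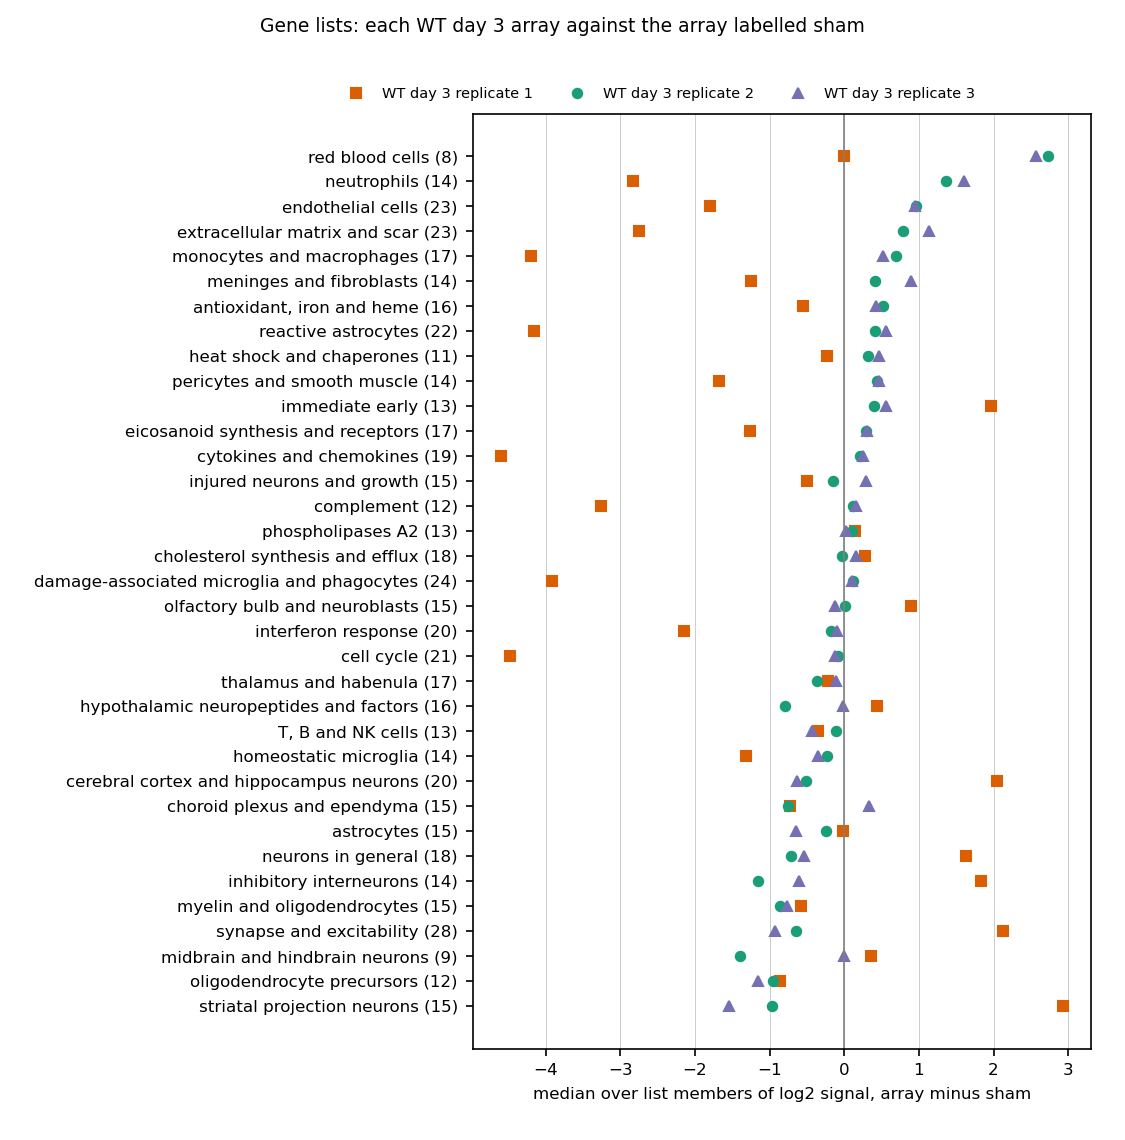
Median over the measured members of each of 35 gene lists (number in brackets) of the log2 signal of each WT day 3 array minus that of the array labelled sham. Replicates 2 (circles) and 3 (triangles) lie close together for most lists, such as red blood cell genes at 2.73 and 2.56, but apart for midbrain and hindbrain neuron genes at -1.40 and -0.01. Replicate 1 (squares) lies far below 0 for phagocyte, cytokine and cell cycle genes and above 0 for neuron genes.

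Genes of red blood cells showed the largest list difference. Of the 8 measured, 6 were higher on both replicates 2 and 3, each at an unadjusted p under 0.05 (2.45% of all features), and the median was 2.65 (1.76 with all 3 arrays). Hba-a2, an alpha globin gene, read 2.86 and 2.91 on replicates 2 and 3, 0.08 on sham and -0.33 on replicate 1, a difference of 2.81 ± 0.79 without replicate 1. Hba-a1 read 0.31 and 0.24 against -2.40 on both sham and replicate 1. The beta globin gene Hbb-b1 read -3.20 and -3.07 against -6.25 on sham and -6.30 on replicate 1, and Hbb-b2 -2.18 and -2.12 against -4.94 and -5.40. Globin genes cross-hybridise between near-identical copies, so these probes may share signal. Sham and replicate 1 were thus similarly low in globin signal. Alas2, the heme synthesis enzyme of erythroid cells, was at least 6.22-fold higher on replicates 2 and 3, as sham was not well above background. Slc4a1, the band 3 anion exchanger of the red cell membrane, did not share the pattern, at -5.84 and -5.83 against -5.82. The summed signal of the list on a linear scale, in units of the 75th percentile, was 11.52 and 11.35 on replicates 2 and 3, 3.93 on sham and 3.71 on replicate 1. Its part in the other differences between these arrays was not tested.

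Neutrophil genes followed. All 14 measured members were higher in the mean of replicates 2 and 3 than on sham, with a median of 1.57. On both arrays 13 of them were higher (42.1% of all features), and 5 were higher at an unadjusted limma p under 0.05 (2.45%). S100a8 and S100a9, the calprotectin subunits that fill the neutrophil cytoplasm, stood out: S100a8 read 3.19 and 2.97 against 0.43 on sham (2.66 ± 0.61, SE) and S100a9 4.40 and 3.80 against 1.53 (2.56 ± 0.54). On replicate 1 they read -3.21 and -2.19, below sham. Cxcr2, the receptor for neutrophil-attracting chemokines, read -0.96 and -1.21 against -4.00, a difference of 2.91 ± 0.83. Mmp9, a gelatinase that neutrophils carry in granules, read -2.17 and -2.61 against -4.89 (2.50 ± 0.40). The Mmp9 spot lay in row 5, near the outer 2 rows, and a local defect was not tested. Csf3r, the receptor for granulocyte colony-stimulating factor, read 5.13 and 4.91 against 4.62 a difference of 0.40. With all 3 arrays the list median was 0.45, and 10 of 14 members were lower on replicate 1 than on sham.

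The Cxcr2 ligands read higher as well. Cxcl1 read -0.78 and -0.32 against -2.36, and Cxcl2, not well above background on sham, was at least 2.19-fold higher on replicates 2 and 3. Il6, a cytokine of the acute phase, read -0.55 and 0.59 against -1.30, and the macrophage chemokine gene Ccl3, in column 85, 1.55 and 2.02 against 0.72. Over the 19 cytokine and chemokine genes the median was 0.22 (-1.15 with all 3 arrays). In the mean of replicates 2 and 3, 12 were higher, beside 50.8% of all features. On replicate 1 all 19 were lower than on the other 3 arrays, with a median of -4.60 below sham. Prok2, which encodes a secreted prokineticin found in neutrophils and some brain nuclei, was among the largest differences inside the array: it read -0.99 and -0.57 on replicates 2 and 3 against -4.32 on sham and -3.80 on replicate 1, a difference of 3.54 ± 0.36. Its spot, at row 515 and column 26, lay in the columns of the dim sham spots of rows 526 to 532, and a local defect was not tested.

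Macrophage genes were divided, as all features were. Of 17 monocyte and macrophage genes, 9 were higher on both replicates and 6 lower, beside 42.1% and 40.4% of all features. The median was 0.61 (-1.85 with all 3 arrays). The higher ones included scavenger receptors and repair enzymes: Mrc1, the mannose receptor, read 1.59 and 1.88 against 0.04 (1.69 ± 0.60, SE), and Arg1, arginase of alternatively activated macrophages, 2.89 and 2.73 against 1.11 (1.70 ± 0.74). Lyve1, a hyaluronan receptor of perivascular macrophages and lymphatic vessels, read -0.40 and 0.22 against -1.95, and Cd163, a hemoglobin scavenger receptor, -4.05 and -2.72 against -5.26. The lower ones included the genes of MHC class II, which presents antigen to helper T cells and which were picked after their values were seen. H2-Ab1 read 2.44 and 1.60 against 3.38 (-1.36 ± 0.41), H2-Aa, in column 1, -1.27 and -2.20 against -0.40, and Cd74, the invariant chain, 0.73 and -0.03 against 1.53. On replicate 1 all 17 members were below the other 3 arrays.

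Microglial genes differed little. The 24 damage-associated genes had a median of 0.07 (-1.21 with all 3 arrays) with every member within 1 log2 unit of sham. Spp1, which encodes osteopontin, read 5.24 and 5.55 against 5.33, and Trem2, a lipid-sensing receptor of microglia, 4.87 and 4.85 against 4.84. Clec7a, the dectin-1 receptor, was the furthest from sham, at 0.76 and 0.48 against 1.57. Of 14 homeostatic microglia genes, 12 were lower on both replicates, beside 40.4% of all features, with a median of -0.31 (-0.68 with all 3 arrays). Cx3cr1, the fractalkine receptor, read 3.58 and 3.21 against 4.24, and P2ry12, the purine receptor that guides resting processes, -0.83 and -1.03 against -0.36 (-0.58 ± 0.19). P2ry12 read 0.14 on replicate 1, above the other 3 arrays.

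Reactive astrocyte genes were higher on both replicates for 17 of 22, with a median of 0.46. All 22 were lower on replicate 1 than on sham, and the median turned to -1.15 with all 3 arrays. Timp1, an inhibitor of matrix metalloproteinases, read 4.39 and 4.44 against 3.50, and Hspb1, a small heat shock protein, 5.39 and 6.07 against 4.64. Cxcl10, an interferon-induced chemokine, went the other way, at -2.02 and -1.29 against 0.74 (-2.39 ± 0.65, SE). Of 20 interferon response genes, 10 were lower on both replicates, beside 40.4% of all features, and 3 higher, with a median of -0.10 (-0.90 with all 3 arrays). Ifit3, an interferon-induced antiviral gene, read -0.71 and -0.39 against 0.37 on sham and -0.66 on replicate 1 (-0.92 ± 0.21 without replicate 1), and Mx1, a dynamin-like antiviral GTPase gene, read -3.83 and -3.41 against -2.38. Genes of the general astrocyte list were lower, 11 of 15 on both replicates with a median of -0.40 (-0.22 with all 3 arrays). Aqp4, the water channel of astrocyte end-feet, read 1.43 and 0.74 against 2.55, and Slc4a4, a bicarbonate transporter, 0.71 and 0.51 against 1.96.

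Complement genes had a median of 0.15 over 12 members (-1.08 with all 3 arrays). C3, the central component of the cascade, read 0.77 and 0.70 against 2.25, and C4b 3.47 and 3.36 against 4.16. C1qa, of the initiating complex, read 4.30 and 4.47 against 4.34. Cell cycle genes had a median of -0.13 (-1.54 with all 3 arrays) over 21 members, which differed by -0.29 to 0.16. Ccnb1, the cyclin of mitotic entry, read 0.95 and 0.99 against 1.21. On replicate 1 all 21 were lower than on the other 3 arrays.

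Matrix genes were higher on replicates 2 and 3. Of 23, 20 were higher on both and 0 lower on both, 8 at an unadjusted p under 0.05 (2.45% of all features), with a median of 0.94 and 10 over 1 log2 unit. Col1a1, a chain of fibrillar collagen I with its spot in column 2, read 2.81 and 3.01 against 1.58 (1.33 ± 0.22, SE). Col1a2, inside the array, differed by 1.27 ± 0.31, and Col3a1 read 3.32 and 3.41 against 1.92. Lox, which cross-links collagen, had the largest difference at -2.32 and -1.72 against -4.61 (2.59 ± 0.81). Tnc, a glycoprotein of wound matrix in row 532, read -1.43 and -0.96 against -2.76. Tgfbi, an adhesion protein induced by TGF-beta, did not differ beyond the spread, at 5.52 and 4.96 against 5.07. Replicate 1 was lower than sham for 22 of the 23, with a list median of -2.75 against it, and the median with all 3 arrays was -0.47. Foxd1, a forkhead transcription factor gene, read -0.32 and 0.38 against -1.64, Plat, tissue plasminogen activator, 0.91 and 1.67 against -0.98, and Lrrc17, a leucine-rich repeat gene, -4.19 and -3.76 against -6.32. The Plat spot lay in row 3, next to the outer 2 rows, and a local defect was not tested. Prrx1 and Prrx2, homeobox genes of mesenchyme, differed by 2.39 and 4.22, but both spots lie in the outer 2 rows or columns.

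Endothelial genes were higher in 19 of 23 cases on both replicates, with a median of 0.96 and 0 members at an unadjusted p under 0.05. Replicate 1 was lower than sham for 20 of 23, with a median of -1.80, and with all 3 arrays the median was -0.03. Angpt2, a vessel-destabilising ligand of the Tie2 receptor, read 1.78 and 2.43 against 0.58, and Esm1, a gene of sprouting tip cells, 0.19 and 0.67 against -1.26. The junction gene Pecam1 read 0.17 and 0.08 against -1.11 and Emcn, a surface sialomucin, 0.03 and 0.13 against -1.29. Mfsd2a, the lipid transporter of the blood-brain barrier, read 0.23 and 0.42 against 0.22. Among pericyte and smooth muscle genes the median was 0.44 over 14 members (-0.27 with all 3 arrays). Des, the intermediate filament desmin of pericytes, read -1.49 and -1.58 against -2.53, whereas Cnn1, the smooth muscle calponin, was lower at -2.43 and -2.63 against -0.71 (-1.81 ± 0.23) and read -1.27 on replicate 1.

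**Figure D4:**
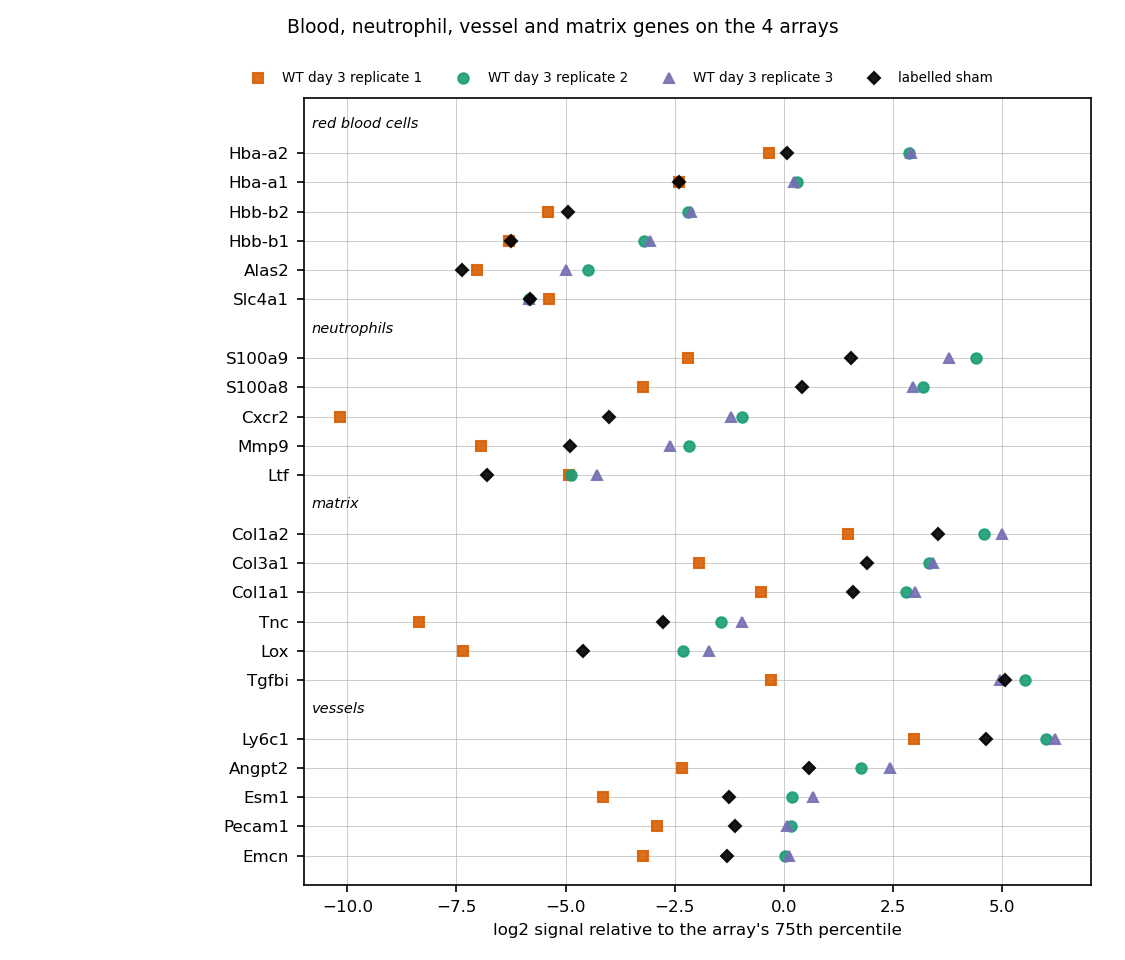
Log2 signal, relative to the 75th percentile of each array, of red blood cell, neutrophil, matrix and vessel genes on the 4 arrays. For the globin genes replicates 2 and 3 lie about 3 log2 units above both sham and replicate 1, while for the neutrophil, matrix and vessel genes drawn, other than Ltf and Tgfbi, sham lies between replicate 1 and the other WT day 3 arrays.

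Of 16 antioxidant, iron and heme genes, 14 were higher on both replicates, with a median of 0.47. Replicate 1 was lower than sham for 14 of the 16, and the median with all 3 arrays was 0.16. Hmox1, which degrades heme, read 4.67 and 4.55 against 3.83, and Hp, the hemoglobin-binding haptoglobin, 1.83 and 1.32 against 0.28. Cybb, the catalytic subunit of the phagocyte oxidase, read -3.23 and -3.44 against -2.54. Heat shock genes had a median of 0.46 over 11 members (0.02 with all 3 arrays, and 7 of 11 lower on replicate 1), with the constitutive chaperone gene Hspa8 at 5.36 and 5.22 against 4.75. Immediate early genes had a median of 0.44 over 13 members without replicate 1 and 0.93 with it, with Dusp1, a kinase phosphatase, at 0.08 and 0.41 against -1.03.

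Among the lipid mediator genes that the series was designed around, Pla2g2e itself read -6.89 on replicate 1, -3.68 and -3.36 on replicates 2 and 3 and -4.69 on sham. Its difference without replicate 1 was 1.17 ± 0.59 (SE; limma, adjusted p = 0.769), and sham lay within the range of the WT day 3 arrays. Over 13 phospholipase A2 genes the median was 0.11 (-0.0039 with all 3 arrays). Pla2g4a, the cytosolic enzyme that releases arachidonic acid, read 1.30 and 1.55 against 0.88, and Pla2g7, the platelet-activating factor hydrolase (column 84), 3.36 and 3.06 against 2.80. Of 17 eicosanoid genes, 13 were higher on both replicates, with a median of 0.30. On replicate 1, 10 of 17 lay over 1 log2 unit below sham, and the median turned to -0.20 with all 3 arrays. Ptgs2, inducible cyclooxygenase, differed by 1.12 ± 0.87, and Alox5, which starts leukotriene synthesis, read -0.05 and 0.22 against -0.48. Ptgis, prostacyclin synthase, read 0.55 and 0.69 against -0.28. Ptger4, a prostaglandin E2 receptor, was lower at -3.02 and -3.42 against -2.55. Cholesterol genes had a median of 0.08 (0.15 with all 3 arrays) over 18 members, all within 1 log2 unit of sham. Nr1h3, the sterol-sensing liver X receptor alpha, read 1.08 and 1.01 against 0.53.

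Oligodendrocyte lineage genes were lower, with similar medians with and without replicate 1. Of 15 myelin genes, 0 were higher in the mean of replicates 2 and 3, 13 were lower on both and 11 on all 3 WT day 3 arrays, with medians of -0.82 without and -0.88 with replicate 1. Mog, a surface protein of the outer myelin sheath, read -0.32, -0.96 and -1.18 on replicates 1 to 3 against 0.26, and Mag, an adhesion protein of the inner sheath, 2.81, 2.25 and 2.17 against 3.42. Ugt8a, which makes the myelin lipid galactosylceramide, read -0.93, -1.89 and -1.82 against -0.26. Of 12 precursor genes, 10 were lower on both replicates, with a median of -1.11 (-0.91 with all 3 arrays). Gpr17, a receptor of cells about to differentiate, read -0.07 and -0.88 against 2.22 on sham and 2.76 on replicate 1. C1ql1, a secreted synaptic organiser made by precursors, read -5.67 and -5.55 against -3.88 (-1.73 ± 0.35, SE), and Lhfpl3 -1.11 and -0.98 against 0.21. Across the knockout day 3 arrays, for scale, the median myelin signal ranged from 1.72 to 3.20, wider than the gap between sham (3.14) and replicates 2 and 3 (2.25 and 2.17).

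Neuron genes were lower on replicates 2 and 3 than on sham and higher on replicate 1. Of 18 general neuron genes, 17 were lower on both replicates, with a median of -0.64, while all 18 were higher on replicate 1 than on sham. Map2, the dendritic microtubule protein, read 0.46 and -0.05 against 1.30 and 2.87 on replicate 1. Of 28 synapse genes, 26 were lower on both, with a median of -0.88. Syn2, a synaptic vesicle protein, read 0.86 on each against 2.09 on sham and 4.55 on replicate 1, and Grm5, a metabotropic glutamate receptor, 0.35 and 0.16 against 1.78 and 3.71. Genes of striatal projection neurons, which lie in the territory of the occluded artery, had the lowest median at -1.45, with 13 of 15 lower on both. Penk, the enkephalin precursor, read 1.52 and 2.96 against 4.11 and 6.24 on replicate 1, Pdyn, the dynorphin precursor, -1.42 and -0.27 against 1.28 and 3.86, and Pde10a, a phosphodiesterase of these cells, -0.70 and -1.23 against 0.92 and 4.47. Foxp1, a transcription factor of the same neurons, was higher at 3.04 and 3.16 against 2.79. With all 3 arrays the medians were 0.10, 0.11 and 0.14, so these lists lie on opposite sides of sham with and without replicate 1. For scale, median signal on the knockout day 3 arrays ran from 0.77 to 2.46 for general neuron genes and -1.09 to 0.74 for synapse genes. For striatal genes it ran from -1.33 to 2.01. Sham lay within each of these ranges, at 2.36, 0.30 and 1.28.

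**Figure D5:**
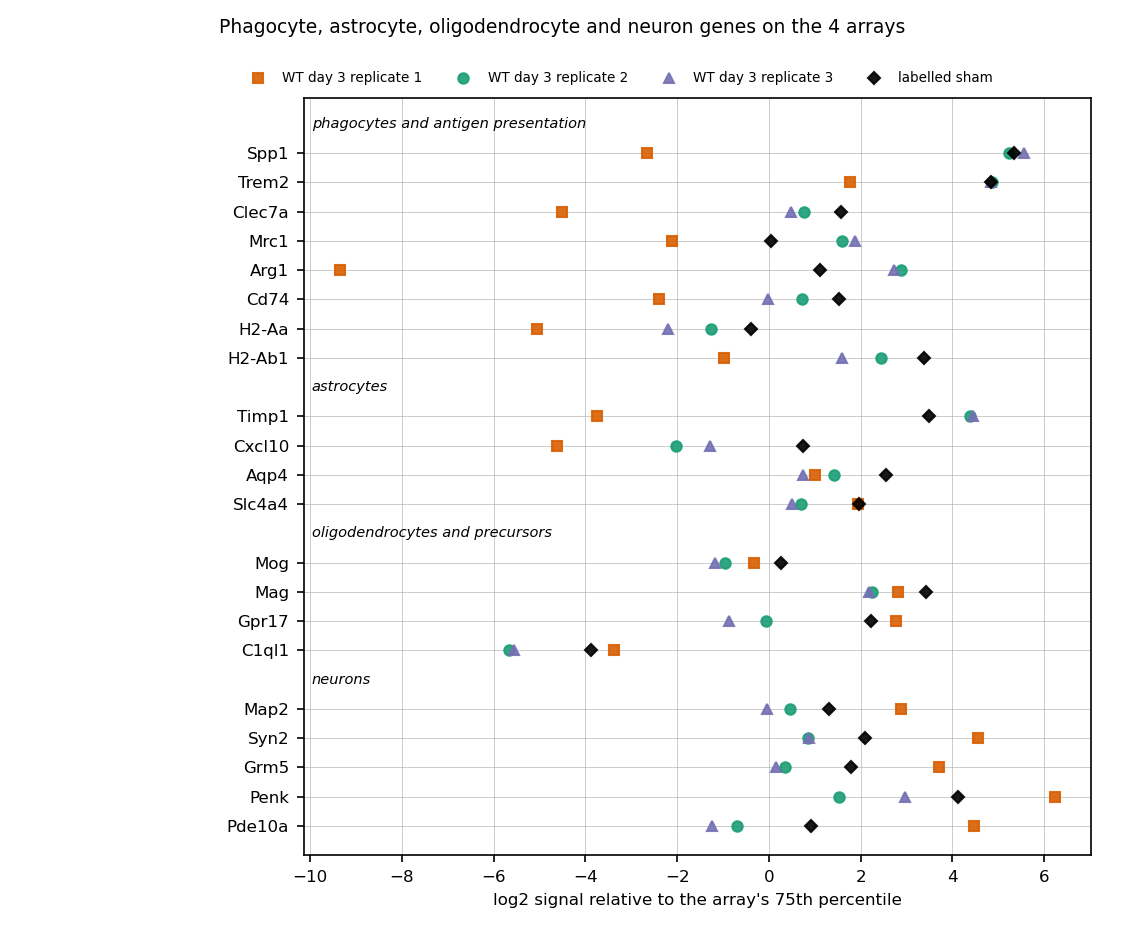
Log2 signal, relative to the 75th percentile of each array, of phagocyte, astrocyte, oligodendrocyte and neuron genes on the 4 arrays. Sham (diamonds) sits beside replicates 2 and 3 for Spp1 and Trem2, above them for Cd74, H2-Aa and H2-Ab1, and between them and replicate 1 for each of the 5 neuron genes drawn.

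The feature that passed as lower with replicates 2 and 3 was a transcript named in the files by its Ensembl identifier, ENSMUST00000051089, with its probe at chr3:96082754-96082813. It read -6.98 and -6.63 on replicates 2 and 3, above background on 1 of them, and -2.61 on sham, a difference of -4.20 ± 0.22 (SE; limma, adjusted p = 0.0383). It read -1.57 on replicate 1, above sham, so that with all 3 arrays the difference was -2.46 ± 2.09. The knockout arrays read -6.26 to -6.12. Other genes inside the array that were lower on replicates 2 and 3 did not pass. Col24a1, a fibrillar collagen gene of bone and cortex, read -6.38 and -6.34 against -3.88 on sham and -2.97 on replicate 1, and H2-Q1, a class I MHC gene whose family shares near-identical sequence, -5.38 and -5.94 against -3.51 and -2.98. Sox6, a transcription factor of precursors and interneurons, read -4.82 and -4.74 against -3.32, with -3.74 on replicate 1.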

How the data were processed

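Per the file headers, the authors' scanner output (Agilent Feature Extraction 11.5.1.1) gives a processed intensity per spot with background subtracted and spatial trends removed within each array. Flags of spots well above background come from the same files. The deposited value table is a linear ratio of that signal to each array's 75th percentile, to within 0.0428%, and was used as an alternative.

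Here log2 processed intensity minus that percentile was averaged over the spots of a probe, without spots flagged as outliers. Features well above background on 3 or more of 7 arrays were kept, with the brightest probe per gene, giving 23186. Names came from a RefSeq gene table (GRCm38.p6), which matched 28742 of 39401 probes. Positions are those of the array design (mm9). The test was limma's moderated statistic (version 3.58.1, R 4.3.3; 3 groups, two-sided, Benjamini-Hochberg), fitted to all 7 arrays or without WT day 3 replicate 1 and tested on simulated data. On the simulated data, changes of 1 log2 unit were recovered in 0% of cases in either fit. Changes of 2 log2 units were recovered in 9.23% with 3 arrays and 27.9% with replicates 2 and 3. Changes of 4 log2 units were recovered in 47.9% and 83.8%. Precision is limited by how few arrays there are.

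The comparison, lists, rules and alternatives were chosen with earlier results of these data known. Named genes are those past the threshold, then per fit and direction up to 12 with the largest difference at an unadjusted p under 0.01 that were well above background on the 4 arrays, on the same side of sham and not low on sham alone, and per list up to 5 with the largest and 2 with the smallest difference. Not all are printed. Ncaph2, Tfrc, Metap1, H2-Ab1, H2-Aa, Cd74 and the choice to mark edge spots were taken after the values were seen.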

Additional observations from a re-analysis of the deposited data

How the results depend on the processing

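The calls past an adjusted p of 0.05 were few and rested on the processing. With 3 WT day 3 arrays, the 3 higher and 0 lower features became 1 higher with median centring, and 0 higher with normexp, quantile normalization, the 4 arrays of the slide alone, features well above background on all 7 arrays, or without spots dim only on sham, with 103 to 217 higher at an unadjusted p under 0.05. Array weights gave 110 higher and 35 lower. Leaving out 1 array gave 0 to 5 higher and 0 to 1 lower, the 5 and 1 without WT day 3 replicate 1 and 0 and 0 without any 1 of the others. With replicates 2 and 3, the 5 higher became 0 with normexp, the slide alone, the stricter filter, without spots dim only on sham and without any 1 further array (0 to 0), with 259 to 2216 higher at an unadjusted p under 0.05. The 1 lower became 0 under those settings and with median centring, quantile normalization, no filter or every probe, with 278 to 2247 lower at an unadjusted p under 0.05. Leaving out the outer 2 rows and columns, a choice made after seeing the data, gave 0 calls in both fits, with 104 higher and 67 lower at an unadjusted p under 0.05 for 3 arrays and 421 and 457 for replicates 2 and 3. Every WT day 3 array lay above sham for 5928 features with median centring and 6285 with normexp, and below it for 1653 with median centring. Leaving out 1 array gave 4952 to 9769 above and 3322 to 9356 below. Median centring moved the median of all features to 0.13 and normexp to 0.10 with 3 arrays, and the share of higher among all features from 54.1% to 65.5% and 65.6%. With replicates 2 and 3, both lay above sham for 12583 features and below it for 6780 with median centring, and for 13040 and 6701 with normexp. Without replicate 1, 16 of 35 list medians changed sign in the fit of 3 arrays. Of 114 named gene results, 11 values of 5 genes close to sham changed sign with replicates 2 and 3: C1qa gave -0.013 with normexp and -0.20 with quantile normalization, Slc4a1 0.11 with median centring, 0.20 with normexp and 0.10 with quantile normalization, Spp1 -0.27, Tgfbi -0.13 and Trem2 -0.28 with quantile normalization. Leaving out 1 of the WT day 3 replicates 2 and 3 gave -0.047 to 0.13 for C1qa, -0.089 to 0.22 for Spp1 and -0.10 to 0.46 for Tgfbi. No paired analysis was possible because the sham group holds a single replicate number. Dim probes give only bounds, and the number of arrays limits the rest.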
